A study of Mus musculus with 2 samples.

Results

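The genes of sterol and fatty acid synthesis were followed in mouse leukemic stem cells (LSCs) of chronic myeloid leukemia (CML). They were chosen by symbol, as the 35 genes of a written list of enzymes and regulators, and all 35 were among the 23284 gene symbols of both libraries. The list holds 17 enzymes of the sterol branch, 12 genes of the fatty acid branch, 5 genes that control the SREBP (sterol regulatory element-binding protein) transcription factors, and Stard4, which encodes a sterol carrier protein. The data are 1 RNA-seq library of WT and 1 of STAP-1 KO CML LSCs of C57BL/6J background, sorted as GFP+ CD45.2+ LSK cells (lineage marker-negative, Sca-1-positive, c-Kit-positive) 11 days after the cells had first been transplanted. STAP-1, encoded by Stap1, is a signal-transducing adaptor protein, and the KO mice carried a targeted disruption of its locus. The cells of both libraries descended from LSK bone marrow cells that had been infected with a retrovirus carrying human BCR-ABL and GFP and then transplanted into lethally irradiated recipients, so that both genotypes carry the oncogene and the reporter. A retrovirus inserts at many sites of the genome, and the sources used here do not say whether cells of several mice were pooled. With 1 library per genotype, no difference between the libraries can be set against a spread of replicates, and no p-value is given.

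Cholesterol is built from acetyl-CoA in successive stages. The mevalonate pathway makes isoprenoid units and joins them to farnesyl diphosphate, which also feeds protein prenylation and ubiquinone synthesis. The later enzymes then turn squalene into lanosterol and lanosterol into cholesterol. Fatty acid synthesis starts from the same acetyl-CoA, uses NADPH, and ends with palmitate, which elongases and desaturases convert into longer and unsaturated chains. Both branches are under the control of SREBP transcription factors, which sit in the membrane of the endoplasmic reticulum bound to the escort protein SCAP. When sterols are low, SCAP carries the SREBPs to the Golgi, where they are cut and set free to enter the nucleus. When sterols are high, the INSIG proteins hold SCAP back. Growing blood cells make both kinds of lipid for new membranes.

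SREBPs bind DNA together with NF-Y, a factor that recognizes CCAAT, and the promoters of 4 members are printed here because the results turn on these genes. They are Hmgcs1, the member whose promoter holds the sterol response element searched for, Cyp51 and Fasn, the members of the sterol branch and of fatty acid assembly with the lowest ratio of the libraries, and Fads2, the member with the highest ratio as deposited. The sequences are RefSeq promoters of GRCm38.p6, written on the strand of the gene from 250 bases before the start of transcription to 50 bases after it. The capitals mark TCACNCCAC and CCAAT on either strand, so that ATTGG is CCAAT on the opposite strand, and the run CCAATTGG in Fasn is a pair of overlapping matches. Hmgcs1 lies at chr13:119690101-119690400 on the plus strand, Cyp51 at chr5:4104648-4104947, Fasn at chr11:120824498-120824797 and Fads2 at chr19:10101454-10101753, each of these 3 on the minus strand.
Hmgcs1: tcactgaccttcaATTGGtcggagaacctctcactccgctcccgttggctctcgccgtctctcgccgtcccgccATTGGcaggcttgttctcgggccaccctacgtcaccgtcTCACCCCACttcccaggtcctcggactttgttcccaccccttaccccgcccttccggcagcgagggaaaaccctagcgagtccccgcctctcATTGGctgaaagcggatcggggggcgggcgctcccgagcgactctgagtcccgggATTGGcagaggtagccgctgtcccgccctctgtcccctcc
Cyp51: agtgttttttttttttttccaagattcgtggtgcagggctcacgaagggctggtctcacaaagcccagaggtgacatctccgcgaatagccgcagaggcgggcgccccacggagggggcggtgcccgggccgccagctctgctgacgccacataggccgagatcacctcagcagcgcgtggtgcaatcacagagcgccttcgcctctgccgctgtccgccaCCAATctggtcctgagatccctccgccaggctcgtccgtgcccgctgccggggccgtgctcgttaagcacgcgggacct
Fasn: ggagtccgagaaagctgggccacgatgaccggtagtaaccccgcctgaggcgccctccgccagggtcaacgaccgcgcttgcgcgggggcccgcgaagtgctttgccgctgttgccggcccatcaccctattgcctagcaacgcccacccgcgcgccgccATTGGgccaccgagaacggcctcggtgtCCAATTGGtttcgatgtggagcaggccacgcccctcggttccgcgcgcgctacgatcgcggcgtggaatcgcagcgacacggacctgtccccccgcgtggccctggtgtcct
Fads2: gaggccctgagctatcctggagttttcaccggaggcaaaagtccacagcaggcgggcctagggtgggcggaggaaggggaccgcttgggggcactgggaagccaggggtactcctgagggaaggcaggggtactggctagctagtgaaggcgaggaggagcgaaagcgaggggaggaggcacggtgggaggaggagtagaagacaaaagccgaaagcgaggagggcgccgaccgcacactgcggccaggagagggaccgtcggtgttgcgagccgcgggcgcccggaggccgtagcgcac

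Of the 35 members, 28 had an entry in the promoter table. TCACNCCAC was found in 1 of the 28, Hmgcs1, where it reads TCACCCCAC and is centred 133 bases before the start, against 1.44% of all 27025 genes with an entry. CCAAT was found in 23 of the 28 members (82.1%), against 41.1% of all genes with an entry and 43.6% of the 7891 of them that averaged 1 FPKM or more. The Sp1 box GGGCGG was also found in 23 of the 28, against 38.2% of all genes and 69.2% of the expressed ones. The members without CCAAT in the window were Acat2, Scap, Acaca, Elovl6 and Fads2. By the ratio of the libraries, CCAAT was in 6 of the 7 members 2-fold or more lower in STAP-1 KO cells that had an entry, in 17 of the 19 within 2-fold and in 0 of the 2 at least 2-fold higher. These matches describe the letters of the window and show no binding. Only the exact pattern of 9 letters was searched for the sterol response element, so that an element with other letters would have been missed.

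Levels are given as FPKM (fragments per kilobase of transcript, scaled to library size), the unit in which the authors deposited the data. FPKM is divided by transcript length, so that levels of different genes are on 1 scale, but because the ratio of the libraries varied with length, as given further on, ratios between genes within a library also carry that difference for genes of unequal length. Positions of genes are those of GENCODE M21 on GRCm38 (mm10), the build of the files. The files state no read number, but steps between the low values corresponded to an effective depth of 7480000 reads in WT and 10390000 in STAP-1 KO cells. From these, reads were estimated for each gene, and each ratio is given with a 95% exact interval that covers counting error only. Ratios are log2((STAP-1 KO + 0.1)/(WT + 0.1)) of the FPKM values, and the interval is that of the ratio of estimated reads without the added 0.1. A gene was counted as higher or lower where the libraries differed 2-fold or more and both were at 0.1 FPKM or above, and medians were taken over genes whose mean was at least 1 FPKM.

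The libraries differed in much else. Stap1 was at 62.0 FPKM in WT and 0.309 FPKM in STAP-1 KO cells, which matches the labelled genotypes. The sorting markers were present in both libraries, with Kit (c-Kit) at 468 and 30.1 FPKM and Ly6a (Sca-1) at 285 and 106 FPKM. Both were 2-fold or more lower in STAP-1 KO cells, with log2 ratios of -3.96 and -1.43. Cd34, a progenitor marker that was not part of this sort, was at 281 and 194 FPKM. All 12 mast cell and basophil markers were 2-fold or more lower in STAP-1 KO cells, and their summed level was 52109 and 5339.6 FPKM, or 8.03% and 0.884% of each library. The highest of them were Cpa3, at 17984 and 1775 FPKM, Cma1, at 13924 and 1168 FPKM, and Tpsb2, at 7016 and 185 FPKM. All 7 primary granule markers were at least 2-fold higher, with sums of 572 and 4670.3 FPKM, as were 6 of 12 proliferation markers, with sums of 1006 and 1888 FPKM. Of the proliferation markers 3 stayed 2-fold higher after the correction for length given next, and Mki67, named after its values were seen, was lower as deposited, at 17.4 and 7.89 FPKM, a log2 ratio of -1.13 that came to -0.19 after it. Macrophage markers summed to 134 and 39.8 FPKM, mainly from Cd68, at 95.7 and 26.3 FPKM, and Adgre1, at 30.7 and 4.34 FPKM. Of the 7 that could be counted 3 were lower and 1, Csf1r, was higher, at 1.564 and 5.31 FPKM, and it was named after its values were seen. Erythroid markers summed to 413 and 272 FPKM, with 2 of 6 lower and 0 higher. Of 6 B cell markers, 4 were at 0 in WT and 3 in STAP-1 KO cells, with Pax5 and Ebf1 at 0 in both, and their sums of 3.60 and 17.98 FPKM were mostly those of Cd79b, at 3.10 and 17.8 FPKM. Xist was at 0 in the WT and 0.849 FPKM in STAP-1 KO cells, and 4 Y-linked genes had a median log2 ratio of -0.97. Fewer cells of a type and less RNA per cell cannot be told apart in such bulk samples, and the part of these cell types in the results that follow was not tested. The ratio of the libraries also fell with transcript length: over 10865 genes whose mean was at least 1 FPKM, Spearman's rho was -0.40, a correlation across genes of 1 pair of libraries. Ratios after a correction, in which the median of genes of like length and then of like GC content was subtracted, are therefore given for members past the cut-off and wherever they change a call or a direction.

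Across the 35 members, 8 were 2-fold or more lower in STAP-1 KO cells, which is 22.9% of the members, beside 22.9% of all 12507 genes counted. The lower members were Hmgcs1, Lss and Cyp51 of the sterol branch, Srebf1 and Scap of the SREBP regulators, and Me1, Fasn and Scd2 of the fatty acid branch. Elovl6 and Fads2, both of the fatty acid branch, were at least 2-fold higher, which makes 2 members (5.71%) against 12.3% of all genes. The median log2 ratio of the 34 members that averaged 1 FPKM or more was -0.37, against -0.04 over 10974 genes. Of these members 26 had a ratio below 0, with a counting interval wholly below 0 in 24, and 8 had a ratio above 0, with an interval wholly above 0 in 7. Over all 10974 genes, the ratio was below 0 in 51.7% and the interval wholly below 0 in 41.9%, against 76.5% and 70.6% of the 34 members. Their summed level over all 35 was 1452.5 FPKM in WT and 960.1 FPKM in STAP-1 KO cells. At the 2-fold cut-off the share of lower members was thus that of the background. As deposited, a larger share of the members than of all genes had a ratio below 0. After the length and GC correction 23 of the 34 members were below 0, with a median of -0.32, against 5427 of all genes below 0 and 5427 above. The share of intervals wholly below 0 also depends on the reads of each gene, because more reads narrow the interval.

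**Figure D1:**
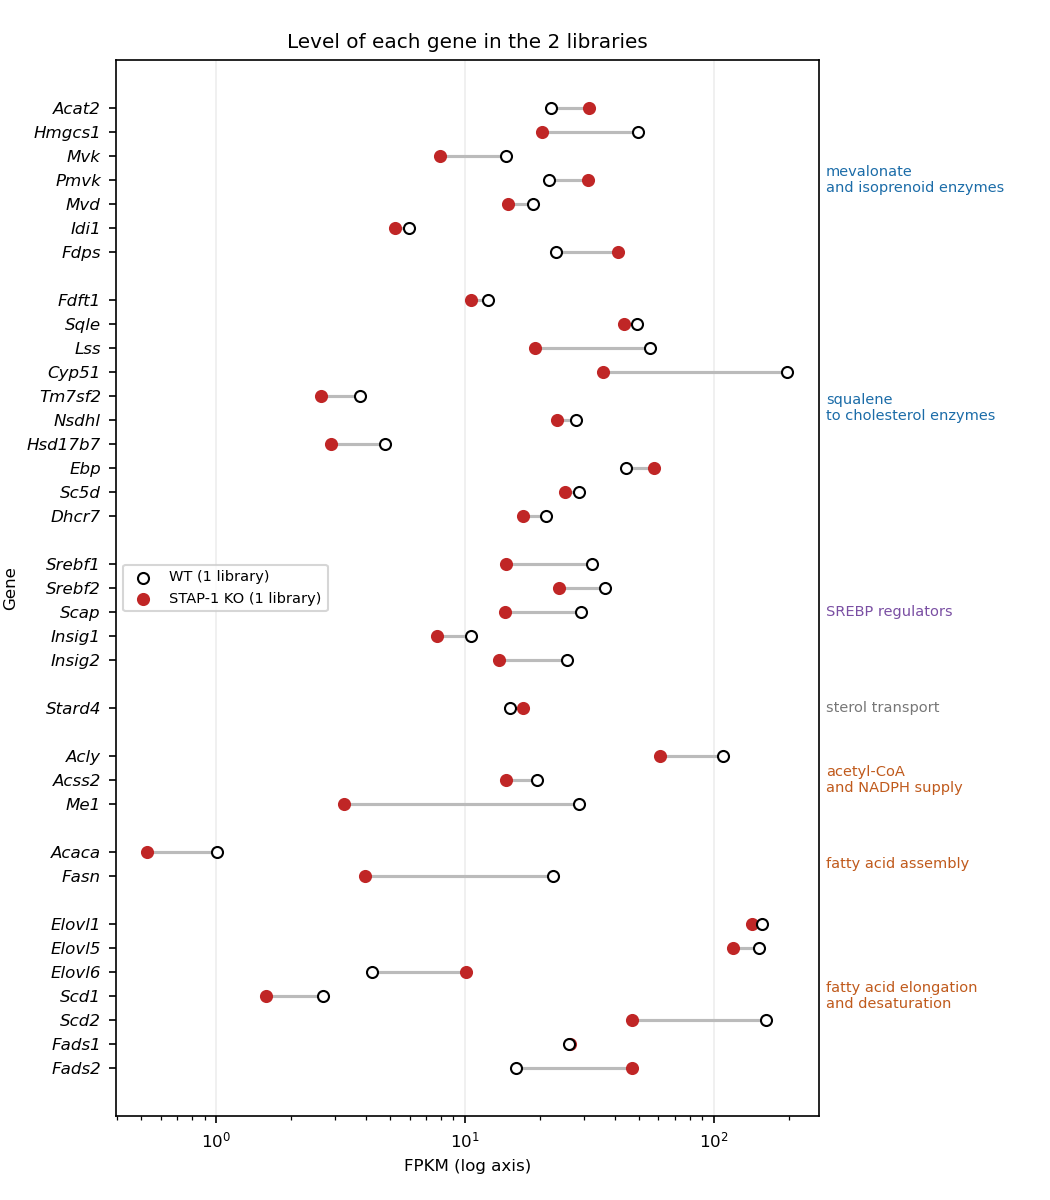
Level of each of the 35 genes in the WT library (open circles) and the STAP-1 KO library (filled red circles), in FPKM on a log axis, with 1 library per genotype and the genes ordered by their place in the pathways. The widest gaps are those of Me1, Fasn and Cyp51, with the STAP-1 KO value on the left, whereas Fads2 and Elovl6 have it on the right.

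In the mevalonate part of the sterol branch, Hmgcs1 was the 1 of 7 enzymes (14.3%) 2-fold or more lower, beside 22.9% of all genes, and 0 were higher. Hmgcs1, at chr13:119690379-119708260, encodes the synthase that makes HMG-CoA, and its level was 49.4 FPKM in WT and 20.4 FPKM in STAP-1 KO cells, from about 1201 and 689 estimated reads. Its log2 ratio was -1.27 (interval -1.41 to -1.14), and it was -1.29 after the length and GC correction. Mvk, the mevalonate kinase, was at 14.6 and 7.97 FPKM, a log2 ratio of -0.87 (-1.23 to -0.52) within the 2-fold cut-off. Mvd, the decarboxylase that forms isopentenyl diphosphate, was at 18.7 and 14.95 FPKM, and Idi1, the isomerase after it, was at 5.97 and 5.25 FPKM with an interval that included 0 (-0.53 to 0.17). The remaining 3 had the higher level in the STAP-1 KO library, each by less than 2-fold. Acat2, which makes acetoacetyl-CoA, was at 22.3 and 31.6 FPKM. Pmvk, the phosphomevalonate kinase, was at 21.9 and 31.4 FPKM. Fdps, which makes farnesyl diphosphate, was at 23.3 and 41.4 FPKM, a log2 ratio of 0.83 (0.60 to 1.08) and of 0.41 after the correction. The 7 genes thus lay on both sides of 0, and their summed level was 156 FPKM in WT and 153 FPKM in STAP-1 KO cells. Within a library, Fdps stood at 0.471 times the level of Hmgcs1 in WT and 2.03 times in STAP-1 KO cells.

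Part of these values could not be assigned to 1 gene with certainty. Of the 75-base windows of the longest coding transcript, 80.4% in Fdps, 40.7% in Acat2 and 29.1% in Idi1 also occur in transcripts of other genes, among them Gm43738 for Fdps and Acat3 for Acat2. Acat3 itself was at 0.255 FPKM in the WT library and at 0 in the STAP-1 KO library. In Hmgcs1 the share was 12.2%, all of it with the antisense gene Gm48342, which cannot be told apart from it because the library kit keeps no strand.

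From squalene to cholesterol, 9 of 10 enzymes had the lower level in the STAP-1 KO library, beside 51.7% of all genes that averaged 1 FPKM or more. After the correction 7 of the 10 were below 0. As deposited, 2 of the 10 (20%) passed the 2-fold cut-off, beside 22.9% of all genes counted. Cyp51, at chr5:4081145-4104746, encodes lanosterol demethylase, the cytochrome P450 that acts on the first sterol of the pathway. It ranked highest of the 35 members in WT cells, at 197 FPKM, and 9th in STAP-1 KO cells, at 35.9 FPKM. This is a 5.49-fold lower level, with a log2 ratio of -2.45 (-2.54 to -2.37) from about 5478 and 1390 reads, and of -2.29 after the correction. Lss, at chr10:76531588-76557138, encodes lanosterol synthase, which closes the ring system of the sterols. Its level was 55.6 FPKM in WT and 19.1 FPKM in STAP-1 KO cells, with a log2 ratio of -1.53 (-1.65 to -1.42). The correction brought Lss to -0.92, inside the 2-fold cut-off. Hsd17b7, the sterol ketoreductase, was at 4.77 and 2.91 FPKM, a log2 ratio of -0.69 (-1.06 to -0.37).

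The other 8 members from squalene to cholesterol, Hsd17b7 among them, were within 2-fold, also after the correction. Sqle, the epoxidase that prepares squalene for ring closure, was at 49.2 and 43.6 FPKM, a log2 ratio of -0.17 (-0.30 to -0.04). Cyp51 therefore stood at 4.01 times the level of Sqle in WT cells and 0.824 times in STAP-1 KO cells, and Lss at 1.13 and 0.439 times. Fdft1, the squalene synthase, was at 12.4 and 10.6 FPKM, with a ratio just below 0 (-0.45 to -0.01) that came to 0.05 after the correction. Its exons overlap those of the opposite-strand gene Ctsb, which was at 149 and 70.7 FPKM, and 25.4% of its 75-base windows occur in other genes. Of the enzymes that act after Cyp51, the sterol reductase Tm7sf2 was at 3.78 and 2.63 FPKM with an interval that included 0 (-1.23 to 0.20), and the decarboxylating dehydrogenase Nsdhl was at 27.9 and 23.4 FPKM. Sc5d, the sterol desaturase, was at 28.7 and 25.2 FPKM, and Dhcr7, the last reductase of the Kandutsch-Russell route, was at 21.3 and 17.1 FPKM. The log2 ratio of Sc5d was -0.19 as deposited and 0.25 after the correction. Ebp, the sterol isomerase, was the exception among the 10, at 44.4 FPKM in WT and 57.7 FPKM in STAP-1 KO cells, a log2 ratio of 0.38 (0.23 to 0.54), and of 0.06 after the correction. The summed level of the 10 genes was 445 and 238 FPKM, and most of this difference of the sums was that of Cyp51.

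All 5 SREBP regulators had the lower level in the STAP-1 KO library, each with a counting interval wholly below 0. Over all 10974 genes that averaged 1 FPKM or more, the ratio was below 0 in 51.7% and the interval wholly below 0 in 41.9%. Of the 5, 2 (40%) were 2-fold or more lower, beside 22.9% of all genes counted, and 4 were below 0 after the correction, as given in the next paragraph. Srebf1, at chr11:60199089-60222581, encodes the SREBP isoforms best known for fatty acid genes, and it was at 32.5 and 14.7 FPKM, a 2.21-fold lower level with a log2 ratio of -1.14 (-1.29 to -0.996). Scap, at chr9:110333288-110384950, encodes the escort protein and was at 29.4 and 14.5 FPKM, a 2.02-fold lower level that stands just past the cut-off. Insig2, whose product retains SCAP in the endoplasmic reticulum, was at 25.8 and 13.7 FPKM, a 1.89-fold lower level just short of it. Srebf2, the isoform best known for sterol genes, was at 36.5 and 23.98 FPKM, a log2 ratio of -0.60 (-0.72 to -0.49). Insig1, itself known as a target of the SREBPs, was at 10.6 and 7.75 FPKM, a log2 ratio of -0.45 (-0.74 to -0.16). Srebf1 stood at 0.891 times the level of Srebf2 in WT cells and at 0.613 times in STAP-1 KO cells, and Insig2 at 2.43 and 1.77 times the level of Insig1.

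Of the sterol, fatty acid and regulator groups, the regulators had the median that differed most with the correction. It was -0.91 as deposited and -0.49 after the correction for length and GC content, with 4 of the 5 still below 0. Srebf1 came to -0.49, Scap to -0.36 and Srebf2, with a transcript of 5077 bases, to 0.41, whereas Insig1 came to -0.62 and Insig2, with 2697 bases, to -1.17. The order of the 5 genes thus turned with the correction: Srebf1 and Scap were at least 2-fold lower without it and Insig2 with it. Scap also left the counted genes under each of 3 other scalings of the libraries, and 10.2% of its windows occur in an opposite-strand transcript, 5830462I19Rik. Stard4, the sterol carrier that is also a known SREBP target, was at 15.2 and 17.1 FPKM, a log2 ratio of 0.17 (0.02 to 0.33) and of 0.69 after the correction.

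**Figure D2:**
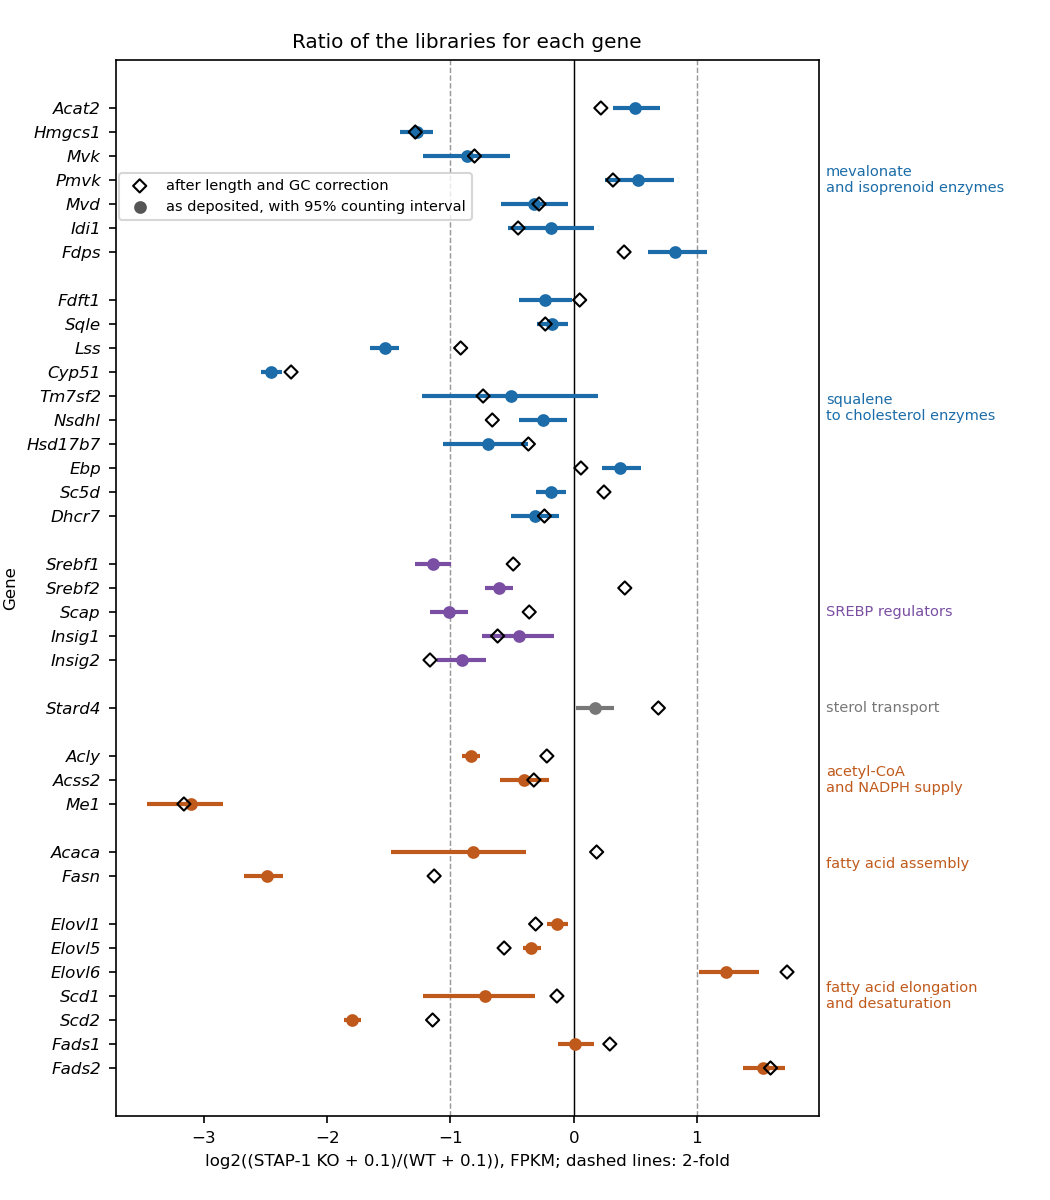
Log2 ratio of the STAP-1 KO to the WT library for each of the 35 genes (filled circles, FPKM with 0.1 added) with the 95% counting interval (bars) and the ratio corrected for length and GC content (open diamonds), where dashed lines mark 2-fold. Cyp51, Me1, Fasn, Scd2 and Hmgcs1 lie left of the lower dashed line, and Fads2 and Elovl6 right of the upper one, with and without the correction, whereas Srebf2, Acaca, Fdft1 and Sc5d cross 0.

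In the fatty acid branch, the genes that supply acetyl-CoA and NADPH and those that assemble palmitate all had the lower level in the STAP-1 KO library. Me1, at chr9:86581371-86695953, encodes the cytosolic malic enzyme, a source of NADPH, and had the lowest ratio of the 35 members. Its level was 28.8 FPKM in WT and 3.26 FPKM in STAP-1 KO cells, 8.85-fold lower, with a log2 ratio of -3.11 (-3.46 to -2.85) from about 663 and 104 reads. The correction left it at -3.16, and 23.1% of its windows occur in other genes, mainly Gm7049. Acly, the ATP citrate lyase that releases acetyl-CoA from citrate, was at 109 and 61.0 FPKM, a log2 ratio of -0.83 (-0.90 to -0.76) that came to -0.22 after the correction. Acss2, which makes acetyl-CoA from acetate, was at 19.5 and 14.7 FPKM, a log2 ratio of -0.40 (-0.60 to -0.20).

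Fasn, at chr11:120805846-120824547, encodes the fatty acid synthase and was at 22.6 FPKM in WT and 3.96 FPKM in STAP-1 KO cells. This is a 5.72-fold lower level, with a log2 ratio of -2.49 (-2.67 to -2.36) from about 1664 and 405 reads. The Fasn transcript, of 10050 bases, was the longest of the members, and the correction brought its log2 ratio to -1.13, still past the 2-fold cut-off. Acaca, the acetyl-CoA carboxylase that makes malonyl-CoA for Fasn, had the lowest level of the 35 members in both libraries, at 1.013 and 0.530 FPKM. Its log2 ratio was -0.82 (-1.48 to -0.39), it came to 0.19 after the correction, and 47.4% of its windows occur in Gm5182, so that the direction of Acaca was not settled. Fasn and Acaca together summed to 23.6 FPKM in WT and 4.49 FPKM in STAP-1 KO cells.

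The elongases and desaturases lay on both sides of 0, with 1 gene past the cut-off below and 2 above. These were 14.3% and 28.6% of the 7 genes, beside 22.9% and 12.3% of all genes. Scd2, at chr19:44293674-44306864, encodes a stearoyl-CoA desaturase, which makes monounsaturated chains, and ranked 2 of the 35 members in WT cells. It was at 163 FPKM in WT and 46.8 FPKM in STAP-1 KO cells, a 3.48-fold lower level with a log2 ratio of -1.80 (-1.86 to -1.73), and of -1.15 after the correction. Scd1, a desaturase encoded near it, was at 2.68 and 1.59 FPKM, so that Scd2 stood at 60.8 times the level of Scd1 in WT cells and 29.5 times in STAP-1 KO cells. Fads2, at chr19:10062765-10101746, encodes the desaturase that starts the synthesis of highly unsaturated fatty acids. It was at 16.1 FPKM in WT and 46.9 FPKM in STAP-1 KO cells, a 2.91-fold higher level with a log2 ratio of 1.54 (1.37 to 1.72) and of 1.60 after the correction. This was the highest ratio of the members as deposited, whereas after the correction that of Elovl6 was higher. Its neighbour Fads1, the desaturase that acts later in that route, was at 26.2 and 26.5 FPKM, a log2 ratio of 0.01 (-0.13 to 0.17). The level of Fads2 was 0.614 times that of Fads1 in WT cells and 1.77 times in STAP-1 KO cells, and it was 0.0989 and 1.001 times that of Scd2. Fads2 thus stood below Fads1 in WT cells and level with Scd2 in STAP-1 KO cells.

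Elovl6, at chr3:129532355-129638495, encodes the elongase that acts on palmitate, and it was at 4.23 FPKM in WT and 10.1 FPKM in STAP-1 KO cells. This is a 2.38-fold higher level with a log2 ratio of 1.23 (1.02 to 1.51) from about 181 and 602 reads, and of 1.73 after the correction. The product of Fasn is the substrate of the enzyme encoded by Elovl6, and the level of Elovl6 was 0.187 times that of Fasn in WT cells and 2.55 times in STAP-1 KO cells, values without the correction. Elovl1 and Elovl5, elongases of very long and of polyunsaturated chains, were among the most highly expressed members in both libraries. Elovl1 was at 157 and 142 FPKM, a log2 ratio of -0.14 (-0.22 to -0.04), and Elovl5 was at 152 and 119.5 FPKM, a log2 ratio of -0.34 (-0.41 to -0.27). The 7 elongases and desaturases had a median log2 ratio of -0.14 and summed to 521 and 394 FPKM.

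Set side by side, the branches had medians close to each other and different spreads. The median log2 ratio was -0.25 for the 17 sterol genes and -0.40 for the 11 fatty acid genes that reached a mean of 1 FPKM, a difference of 0.15 that was between 0.03 and 0.31 in all the settings tried. The band that the medians of the counting intervals give for this difference, from -0.24 to 0.56, included 0. The ratios of the sterol genes ran from -2.45 to 0.83 with an SD of 0.81, and those of the fatty acid genes from -3.11 to 1.54 with an SD of 1.41, which was also the SD over all genes. Of the sterol genes 3 (17.6%) were at least 2-fold lower and 0 higher, and of the 12 fatty acid genes 3 (25%) were lower and 2 (16.7%) higher, against the 22.9% and 12.3% of all genes. The summed level was 601 and 391 FPKM for the sterol genes and 701 and 477 FPKM for the fatty acid genes. These SDs describe genes within 1 pair of libraries and are no replicate error, so that the difference of the branches was not tested.

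**Figure D3:**
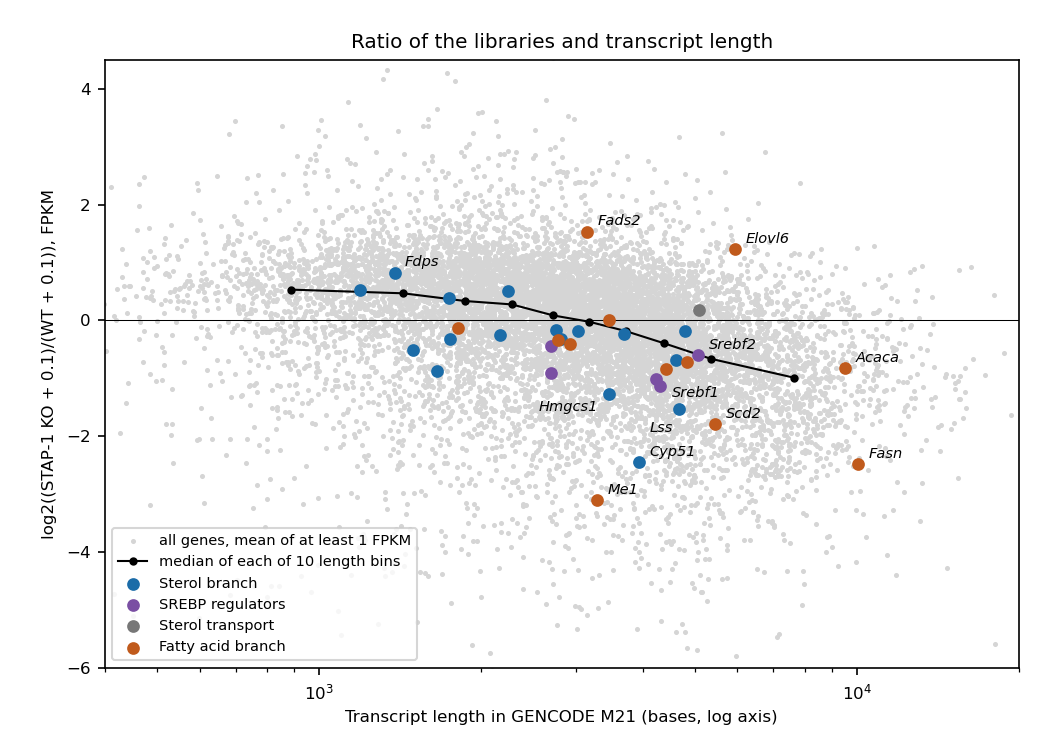
Log2 ratio of the STAP-1 KO to the WT library (FPKM with 0.1 added) against transcript length in bases on a log axis, for genes whose mean was at least 1 FPKM (grey points), with the median of each of 10 length bins (black line) and the members in colour, some of them named, and 110 of 10865 genes lie outside the axes. The black line falls from 0.53 in the bin of shortest transcripts to -0.99 in that of the longest, and Cyp51, Me1, Scd2 and Fasn lie below it while Fads2 and Elovl6 lie above it.

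The groups of members differed in median transcript length, with ranges that overlapped. The median length was 2758 bases for the sterol genes, 3943 bases for the fatty acid genes and 4227 bases for the SREBP regulators. It was 2609 bases for all genes, whether expressed or not. Among genes whose mean was at least 1 FPKM, the central length bins met at 2951 to 2952 bases. The sterol median thus lay below the centre of that set, and the fatty acid and regulator medians lay above it. Over the 34 members, Spearman's rho between ratio and length was -0.37 before and 0.03 after the correction, a description across genes of 1 pair of libraries. After the correction the medians were -0.28 for the sterol, -0.31 for the fatty acid and -0.49 for the regulator genes. The members at least 2-fold lower were then 6, Hmgcs1, Cyp51, Insig2, Me1, Fasn and Scd2, against 17.2% of all genes, and the members at least 2-fold higher were still Elovl6 and Fads2, against 10.6%.

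The other genes of these pathways were taken from a second list of 43 genes, all of which were found, 6 of them under an older symbol. Of the 40 that could be counted, 9 (22.5%) were at least 2-fold lower and 2 (5%) higher, beside 22.9% and 12.3% of all genes, and the median log2 ratio of the 35 that averaged 1 FPKM or more was -0.13. None of the 7 other sterol and isoprenoid enzymes passed the cut-off, and their median was 0.00. Msmo1, the methyl sterol oxidase that acts after Cyp51, was at 100.1 and 55.2 FPKM, a log2 ratio of -0.86 (-0.97 to -0.74) that came to -1.34, past the cut-off, after the correction. Erg28, a scaffold of the demethylating enzymes, was at 68.7 and 102 FPKM, a log2 ratio of 0.57 that came to -0.08 after the correction, and Lbr, a lamin receptor that is also a sterol reductase, was at 141 and 203 FPKM.

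Of 9 other genes of the SREBP pathway, 1 (11.1%) was at least 2-fold lower and 1 (11.1%) higher, beside 22.9% and 12.3% of all genes. Rnf145, a ubiquitin ligase of the endoplasmic reticulum that acts on SCAP, was at 38.9 and 18.9 FPKM, a log2 ratio of -1.04 (-1.17 to -0.91) that came to -0.90, inside the cut-off, after the correction. Nr1h3, which encodes the oxysterol receptor LXR alpha, was at 0.167 and 0.659 FPKM, a value of few reads with an interval that included 0 (-0.06 to 5.31). Syvn1, a ubiquitin ligase of protein breakdown at the endoplasmic reticulum, was within 2-fold, at 26.03 and 14.4 FPKM.

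Of 18 other genes of fatty acid synthesis and elongation, 15 could be counted. Of these 4 (26.7%) were at least 2-fold lower and 1 (6.67%) higher, beside 22.9% and 12.3% of all genes. Hacd2, a dehydratase of the elongation cycle, was the gene that was higher, at 5.07 and 11.2 FPKM with a log2 ratio of 1.13 (0.86 to 1.45). Its relative Hacd4 was at 10.6 and 4.93 FPKM, the elongase Elovl7 at 7.24 and 3.29 FPKM and the desaturase Scd4 at 1.304 and 0.300 FPKM. The remaining lower gene, named after its values were seen, was the carboxylase Acacb, at 0.274 and 0.104 FPKM from about 17.6 and 9.26 reads. The correction turned the log2 ratio of Acacb from -0.88 to 0.44 and brought that of Hacd4 from -1.10 to -0.85, inside the cut-off. The median of the 11 that averaged 1 FPKM or more was 0.39, and -0.02 after the correction.

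Genes of sterol storage, transport and efflux formed the subgroup of the 4 with the largest share below the cut-off, 4 of 9 lower and 0 higher, with a median of -0.76 that was -0.72 after the correction. The background was 22.9% lower, and 17.2% after the correction. With the correction 2 of the 9 were still 2-fold lower, Abca1 at -2.42 and Abcg1 at -1.06, whereas Osbp came to -0.72 and Soat1 to -0.15. Abca1, a cholesterol efflux pump, was at 3.52 and 0.257 FPKM, a log2 ratio of -3.34. Abcg1, another efflux pump, was at 25.2 and 6.93 FPKM, a log2 ratio of -1.85 (-2.03 to -1.69). Osbp, an oxysterol-binding transfer protein, was at 34.9 and 15.2 FPKM, and Soat1, which esterifies cholesterol for storage, was at 23.1 and 11.5 FPKM. Abca1 and Abcg1 are known as targets of the LXR receptors.

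**Figure D4:**
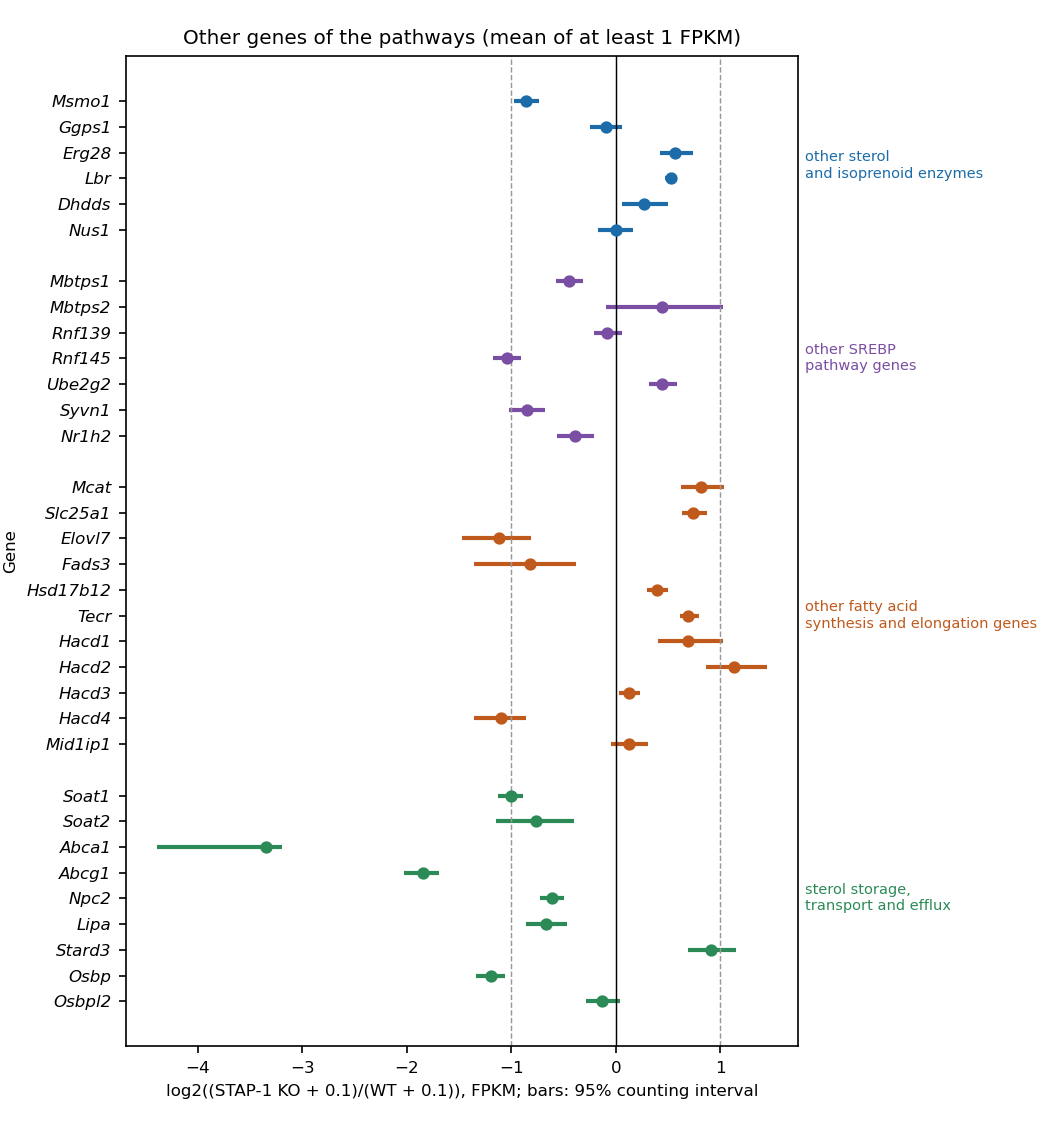
Log2 ratio of the STAP-1 KO to the WT library (FPKM with 0.1 added, circles) with the 95% counting interval (bars) for 33 of the 35 other genes of the pathways that averaged 1 FPKM or more, in 4 subgroups, where dashed lines mark 2-fold. In the subgroup of storage, transport and efflux, 8 of 9 genes lie left of 0, with Abca1 lowest, whereas the other fatty acid genes have 8 of 11 to the right of 0. The ratios shown are without the length and GC correction, after which 5 of these 11 were above 0 and 6 below.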

How the data were processed

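RNA-seq libraries of 1 WT and 1 STAP-1 KO sample of CML LSCs were analysed. Per the labels and methods, cDNA was made with a SMART-Seq low-input kit and libraries with a Nextera kit, which keeps no strand, and 75-base single reads were mapped to mm10 with TopHat2 2.0.13 and Bowtie2 2.2.3. The authors deposited FPKM values per gene symbol from Cuffnorm (Cufflinks 2.2.1). The methods and the submitters' processing notes name different SAMtools versions (0.1.19 in the notes) and different RNA kits. The gene annotation and the scaling of the libraries are not given in the sources used here.

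Ratios used a pseudocount of 0.1 FPKM. Depths were estimated from steps between low values of genes with 1 transcript, of which 40.3% (WT) and 38.5% (STAP-1 KO) came within 0.02 of whole reads, where 4% would by chance. Exact intervals cover counting error only. Transcript lengths came from GENCODE M21 (GRCm38), to which 20911 symbols matched as written, 1901 through an older symbol and 472 not. The length and GC correction subtracted the median of 20 bins of each. Motifs were searched in RefSeq promoters of GRCm38.p6. Scripts ran in Python 3.11.15 with scipy 1.17.1, numpy 2.4.6 and pandas 2.3.3, and the steps were tested on simulated data.

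The members, lists, cut-offs and alternatives were chosen with earlier results of these data known. All 35 members are named, with up to 4 genes of each further subgroup with the largest absolute log2 ratio when 1 FPKM was added to both values, and up to 3 markers of a list. Some genes that this rule selects are not reported here. Of the marker symbols, 1 was not found. Alternatives changed the pseudocount, filter, floor, fold cut-off, scaling, and length and GC content.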

Additional observations from a re-analysis of the deposited data

How the results depend on the processing

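The 35 single ratios kept their direction under every alternative except the length and GC correction, under which Acaca, Fdft1, Sc5d and Srebf2 changed sign, 23 of 35 ratios left their counting interval, and the median of the SREBP regulators was -0.49. A pseudocount of 1 FPKM moved 2 ratios out of their interval, those of Me1 to -2.81 and Fasn to -2.25. A 1.5-fold cut-off gave 15 lower and 3 higher members of 35, against 32.8% and 25.6% of all genes, and a 4-fold cut-off gave 3 lower (Cyp51, Me1 and Fasn) and 0 higher, against 8.56% and 2.4% of all genes. A floor of 1 FPKM or of 10 estimated reads left the counts at 8 and 2. The shares of all genes were then 19.3% lower and 10.6% higher at 1 FPKM, and 23.2% and 12.1% at 10 reads. Each of 3 scalings, which divided the STAP-1 KO values by 0.971, 0.961 or 0.958, took Scap from the lower members and left 7. The share of all genes that was lower came to 22.1%, 21.7% and 21.6% under these scalings. The length and GC correction took Lss, Srebf1 and Scap and added Insig2. No paired analysis was possible because there was 1 library per genotype, and for the same reason no library could be left out. Depth limited Acaca, Tm7sf2 and Scd1, each with fewer than 100 estimated reads in both libraries.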
